A study of Mus musculus with 3 samples.

Results

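Glutamate transporters and glutamine enzymes were followed in mouse cardiac myofibroblasts, the contractile and matrix-producing fibroblasts of the injured heart. The set held 9 genes: the 7 genes of the solute carrier family SLC1 (Slc1a1, Slc1a2, Slc1a3, Slc1a4, Slc1a5, Slc1a6 and Slc1a7), glutamine synthetase (Glul) and glutamate dehydrogenase (Glud1). They were 9 of 20658 genes with a probe matched through its RefSeq transcript, and 13 probes read them. The set was chosen by the signal of Slc1a6, which had 1 of the largest reversible losses on these same arrays, so the values of its members describe these arrays and are tested nowhere. Of the 9 genes, 7 passed the filter on dim probes, which asked for a signal well above background in 1 state or more and which 15394 genes passed, and those 7 were well above background on all 3 arrays. Slc1a1 and Slc1a2 were not well above background on any array.

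The cells came from hearts of male C57BL/6J mice, 8 weeks old by 1 label and 10 weeks by another, taken 3 days after an infarct had been set by tying off the left anterior descending artery for good. They had attached to plastic overnight and had been depleted of cells that carry the leukocyte protein CD45. The 3 groups were adherent cells cultured on plastic, non-adherent cells that had been detached and kept floating in low-attachment plates, and re-adherent cells plated again afterwards. Each group had 1 array with RNA mixed from several hearts, so no spread between animals or cultures could be computed, no p-value is given, and the errors below are technical. By the study's methods the states followed each other in culture, so state and time in culture cannot be told apart. The methods also state that many detached cells were lost in suspension, so less RNA of a gene per cell and fewer cells of the type that holds it cannot be told apart either.

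The 3 arrays lay on the same slide, and of their 59305 non-control spots between 53.9% and 59.9% were well above background. Levels are log2 processed signals minus the 75th percentile of their array, and differences between arrays are on that log2 scale. The median difference of all 15394 genes was -0.07 for non-adherent against adherent cells, 0.08 for re-adherent against non-adherent cells and 0.06 for re-adherent against adherent cells. Scaling to spike-in probes moved the first of these to -0.46 and the last to -0.42, and no scaling moved the middle to -0.28, so small differences depend on the scale. Technical errors join the scanner software's own errors of both spots, with a median of 0.20 in every pair.

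Transporters of the SLC1 family carry amino acids across the plasma membrane with the help of sodium. Slc1a1, Slc1a2, Slc1a3, Slc1a6 and Slc1a7 encode the high-affinity carriers of glutamate and aspartate that are best known from brain and retina, where they clear the transmitter glutamate. Slc1a4 and Slc1a5 encode exchangers of neutral amino acids, and SLC1A5 takes up glutamine. Inside the cell, glutamine synthetase joins ammonia to glutamate to make glutamine, whereas glutamate dehydrogenase in mitochondria turns glutamate into alpha-ketoglutarate. Growing cells, fibroblasts among them, use glutamine as a source of carbon and nitrogen.

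Sequence upstream of the start site is shown for the 3 members with the largest steps between arrays. The reason is that the study followed VGLL3, a partner of TEAD transcription factors, and the actin pathway that acts through SRF. The study also reported that knockdown of Tead1 left fibrotic gene expression in these cells unchanged. Whether any factor binds at a match was not tested here. RefSeq promoter windows of the mouse assembly GRCm38.p6, each spanning 250 bases before and 50 bases after a start site, were found for 8 of the 9 members and not for Slc1a5. They were searched on both strands for the TEAD motif CATTCC and for the CArG box of SRF, which can share a CC or GG at its edge with the TEAD motif. Of 32851 windows, 14.7% held CATTCC and 1.63% held a CArG box. The 250 bases before the start are printed from 5′ to 3′ along the gene, with a match in capitals, from chr10:78780246-78780495 on the plus strand for Slc1a6, chr15:8710808-8711057 on the minus strand for Slc1a3 and chr1:153899679-153899928 on the plus strand for Glul.
Slc1a6: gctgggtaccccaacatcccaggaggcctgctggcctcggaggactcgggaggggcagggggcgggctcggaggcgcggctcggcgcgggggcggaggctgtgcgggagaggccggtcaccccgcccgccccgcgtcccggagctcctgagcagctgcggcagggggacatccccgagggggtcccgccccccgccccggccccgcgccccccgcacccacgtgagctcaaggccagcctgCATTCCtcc
Slc1a3: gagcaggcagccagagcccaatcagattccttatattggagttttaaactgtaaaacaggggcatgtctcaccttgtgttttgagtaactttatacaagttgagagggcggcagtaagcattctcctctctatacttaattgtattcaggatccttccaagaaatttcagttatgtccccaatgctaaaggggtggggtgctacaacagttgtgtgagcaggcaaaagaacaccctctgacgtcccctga
Glul: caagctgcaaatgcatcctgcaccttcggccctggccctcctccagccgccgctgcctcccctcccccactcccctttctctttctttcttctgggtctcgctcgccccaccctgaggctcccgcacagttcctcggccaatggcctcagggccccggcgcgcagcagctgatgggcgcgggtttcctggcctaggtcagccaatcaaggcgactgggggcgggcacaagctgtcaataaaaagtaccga
The Slc1a6 window held CATTCC at positions -9 to -4 from the start site. The windows of Slc1a3 and Glul held no match to either motif in these letters. Of the other 5 members with a window, Slc1a2 held CATTCC at positions -5 to 1, and none held a CArG box. The Slc1a6 window was 75.7% G and C, the Slc1a3 window 45.3% and the Glul window 64.3%, against a median of 52.7% over all windows.

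Slc1a6, the glutamate transporter known from Purkinje neurons of the cerebellum, was bright in attached cells and nearly lost in suspension. Its single probe, for the transcript NM_009200, read 29088 intensity units in adherent cells, 131 in non-adherent cells and 36602 in re-adherent cells. Both attached states were high and the suspension state was low, though still well above background. In the raw image the spot had a median pixel of 25951.0 over a local background of 37 on the adherent array, 157 over 32 on the non-adherent array and 32033.5 over 40 on the re-adherent array. Slc1a6 fell by 7.89 in suspension, with a technical error of 0.21, which is 237-fold. It rose by 8.49 on re-adhesion, with an error of 0.21, which is 359-fold. Re-adherent cells lay 0.60 above adherent cells, with an error of 0.20, and between 0.11 and 0.68 above them over the scalings tried.

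The loss of Slc1a6 in suspension ranked number 7 from the lowest of 15394 genes, and number 4 of the 13479 genes well above background on all 3 arrays. Its return ranked number 7 from the highest of all genes, and number 2 of those 13479. By the study's rule of over 16-fold on both steps, 124 genes (0.806%) were lost and regained, and Slc1a6 was the only member among them. That number comes from the scaling, filter and gene matching used here, and it differs from the study's own count. The member next to the 16-fold threshold was Slc1a3, at 5.31-fold and 3.04-fold. The spots around Slc1a6 on the array did not share its course: 22 measured neighbours within 3 rows and columns had a median difference of -0.05 in suspension and 0.21 on re-adhesion.

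**Figure D1:**
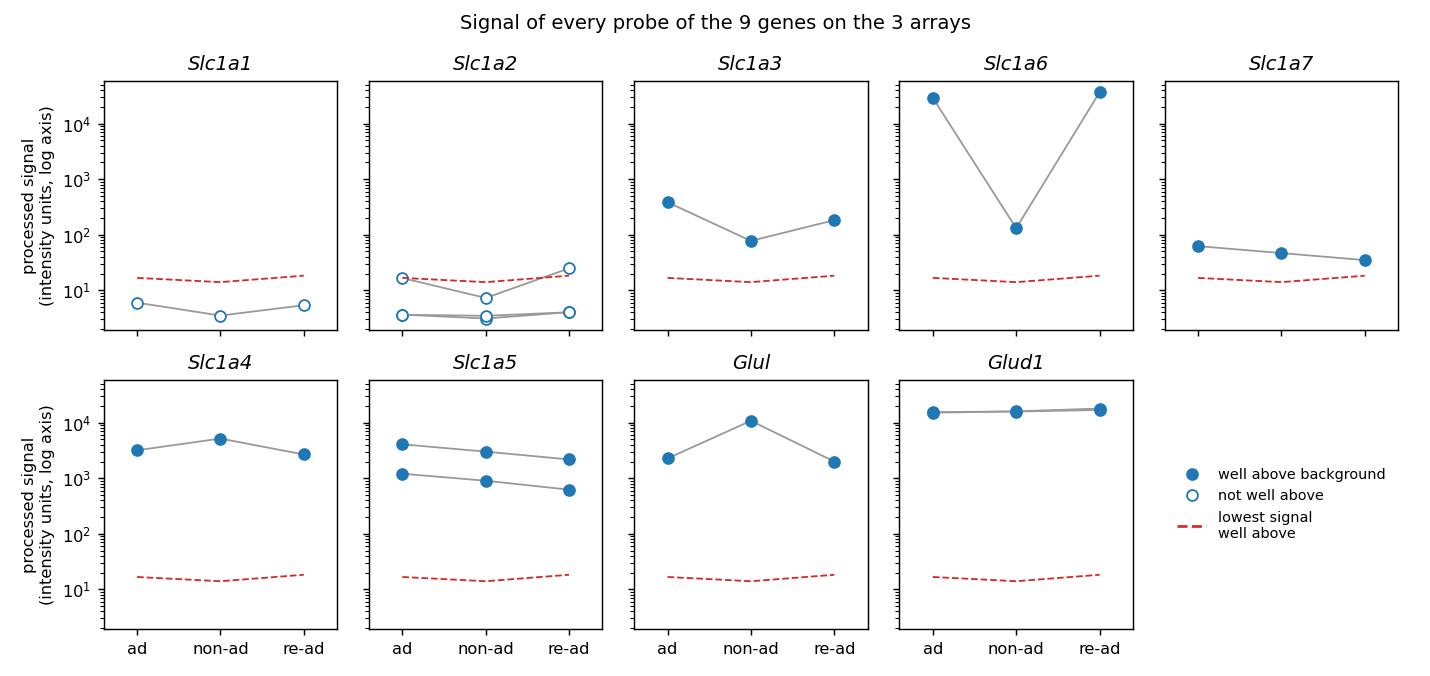
Processed signal in intensity units (log axis) of each of the 13 probes of the 9 genes on the adherent (ad), non-adherent (non-ad) and re-adherent (re-ad) arrays, 1 array per state; lines join the values of a probe, open circles are not well above background and the dashed line is the lowest signal well above background on each array. Slc1a6 drops from 29088 to 131 units and returns to 36602, Slc1a3 dips less, Glul peaks in suspension, and the probes of Slc1a1 and Slc1a2 lie near or below the dashed line.

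Slc1a3, the glutamate transporter of astrocytes that is also called GLAST, moved in the same direction as Slc1a6 with smaller steps. Its probe read 384 units in adherent cells, 77.4 in non-adherent cells and 183 in re-adherent cells. The signal was highest before suspension and lowest in suspension, and the re-adherent signal lay between them. Slc1a3 fell by 2.41 in suspension (error 0.21, 5.31-fold) and rose by 1.60 on re-adhesion (error 0.21, 3.04-fold). Re-adherent cells stayed at -0.80 against adherent cells, with an error of 0.21, and between -1.29 and -0.72 over the scalings. The step down was -1.79 and the step up 1.11 with the normexp background correction.

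The other glutamate transporters were dim or not detected. Slc1a7, known from the retina, read 62.3 units in adherent cells, 46.7 in non-adherent cells and 34.9 in re-adherent cells, all well above background by the software's rule. Its difference in suspension was -0.51 with an error of 0.25, and its difference on re-adhesion was -0.06 with an error of 0.30. The signals of Slc1a7 were lowest in re-adherent cells, at -0.57 against adherent cells with an error of 0.30, or -0.07 with the normexp correction.

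Slc1a1, the glutamate transporter of neurons and kidney, had a probe spotted 10 times, with mean signals of 5.98 units in adherent, 3.50 in non-adherent and 5.38 in re-adherent cells. None of its spots was well above background apart from 1 spot each on the adherent and re-adherent arrays, which the software marked as an outlier and which was left out. Slc1a2, the main glutamate transporter of the forebrain, was read by 3 probes for 2 transcripts. The probe for NM_011393 gave 16.6, 7.27 and 24.8 units and both probes for NM_001077514 gave 3.10 to 4.03 units, none of them well above background. No fold is given for either gene, and the signals do not show that their RNA was absent.

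The exchangers of neutral amino acids, Slc1a4 and Slc1a5, were bright on every array and moved little. Slc1a4, which carries alanine, serine and cysteine, read 3189 units in adherent cells, 5184 in non-adherent cells and 2685 in re-adherent cells. The suspension state was highest, and its difference from adherent cells was 0.60 with an error of 0.20, or 0.21 with spike-in scaling. On re-adhesion Slc1a4 changed by -0.58 with an error of 0.20, and re-adherent cells ended 0.02 from adherent cells, a difference whose sign turned over the scalings, from -0.46 to 0.10.

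Slc1a5, the glutamine importer, was read by 2 probes for the same transcript, NM_009201. The brighter probe gave 4090, 3016 and 2183 units in the order adherent, non-adherent, re-adherent, and the dimmer probe gave 1208, 903 and 624 units. In these unscaled units both probes stepped down at each state, but on the scaled levels their changes on re-adhesion were smaller than the error. Their differences in suspension were -0.54 and -0.52, those on re-adhesion -0.10 and -0.17, and those between re-adherent and adherent cells -0.64 and -0.69, each with an error of 0.20. The spots around the brighter probe had a median difference of -0.69 in suspension and 0.42 on re-adhesion, and those around the dimmer probe -0.70 and 0.68, so the step in suspension was no larger than that of the neighbouring spots. The difference of re-adherent from adherent cells, where the neighbours stood at 0.00 and -0.03, was under 2-fold on both probes and reached -1.12 for the brighter probe with spike-in scaling. The older symbol list of RefSeq gives Slc1a7 as a synonym of Slc1a5, so the probes were told apart by transcript and not by name.

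Glul, glutamine synthetase, ran opposite to Slc1a6. Its probe, for NM_008131, read 2278 units in adherent cells, 10837 in non-adherent cells and 1999 in re-adherent cells. The suspension state stood alone as high, and both attached states were close to each other. Glul rose by 2.15 in suspension (error 0.20, 4.44-fold) and fell by 2.07 on re-adhesion (error 0.20, 4.21-fold). The remaining difference of 0.08 between re-adherent and adherent cells was smaller than its error of 0.20, and its sign turned over the scalings, from -0.41 to 0.16. The 29 measured spots around Glul had a median of -0.55 in suspension and 0.35 on re-adhesion, opposite to it. Macrophages also make glutamine synthetase, and most of their markers rose in suspension as Glul did, though they stayed higher than Glul after re-adhesion, as given below.

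Glud1, glutamate dehydrogenase, was the member that changed least in suspension. Its 2 probes for NM_008133 gave 15165 and 15533 units in adherent cells, 16035 and 15918 in non-adherent cells and 18014 and 16971 in re-adherent cells. The values of the 3 states lay close together on both probes. The differences in suspension were -0.02 and -0.06, within the error of 0.20, and the sign of the first turned over the scalings, from -0.41 to 0.08. Re-adherent cells differed from adherent cells by 0.51 and 0.39 on the 2 probes, and by 0.03 to 0.60 over the scalings for the first.

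Counted over the 7 measured members, 2 (Slc1a3 and Slc1a6) fell over 2-fold from adherent to non-adherent cells, against 14.7% of all genes, and 1 (Glul) rose over 2-fold, against 17.2% of all genes. On re-adhesion 1 (Glul) was over 2-fold lower, against 16.3% of all genes, and 2 (Slc1a3 and Slc1a6) were over 2-fold higher, against 15.6%. Between re-adherent and adherent cells 0 fell and 0 rose over 2-fold, against 4.9% and 4.84% of all genes, with no test behind these counts. Over 4-fold, Slc1a6 and Slc1a3 made 2 lower members in suspension and Glul 1 higher member, against 5.34% and 7.61% of all genes. On re-adhesion Glul made 1 lower and Slc1a6 1 higher member over 4-fold, against 6.05% and 5.7%. With spike-in scaling 3 of the 7 were over 2-fold lower in re-adherent than in adherent cells. That scaling moved the median of all genes in this pair to -0.42. The share of all genes under it is not given, and the 4.9% belongs to the main scaling. The median of the 7 members was -0.51 in suspension, -0.06 on re-adhesion and 0.02 between re-adherent and adherent cells, beside medians of all genes of -0.07, 0.08 and 0.06. Both suspension steps share the non-adherent array, so an opposite sign in them is no independent return.

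**Figure D2:**
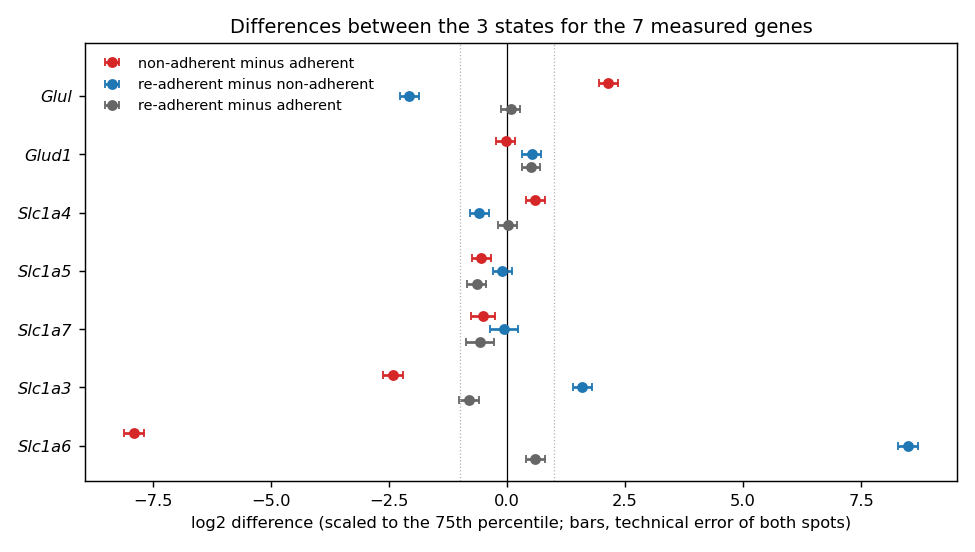
Log2 differences between the 3 states (x axis) for the 7 members well above background, scaled to the 75th percentile of each array; points are single differences between 2 arrays, bars are the technical error of both spots, and dotted lines mark 2-fold. Slc1a6 lies at -7.89 and 8.49, Slc1a3 at -2.41 and 1.60 and Glul at 2.15 and -2.07, while all differences of the other 4 genes lie within 2-fold.

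The genes closest to each moving member in both steps were sought among the 13479 genes well above background on all 3 arrays, by the distance between the pairs of log2 differences over 3 arrays. For Slc1a6 they were Cnn1, Actg2, Acta1, Ddah1 and Scel, at distances of 1.03 to 1.51. Cnn1 encodes calponin, Actg2 and Acta1 encode muscle actins, and Ddah1 encodes an enzyme that breaks down methylated arginine. Unlike Slc1a6, Cnn1 and Actg2 ended below their adherent level, by -0.81 and -1.28. For Slc1a3 the closest genes were Lrrc32, Pappa, Lyar, Epha7 and Nppb, at distances of 0.06 to 0.16. For Glul they were Dapk1, Tmem191c, Pgap1, Slc26a11 and H2-D1, at distances of 0.01 to 0.05.

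**Figure D3:**
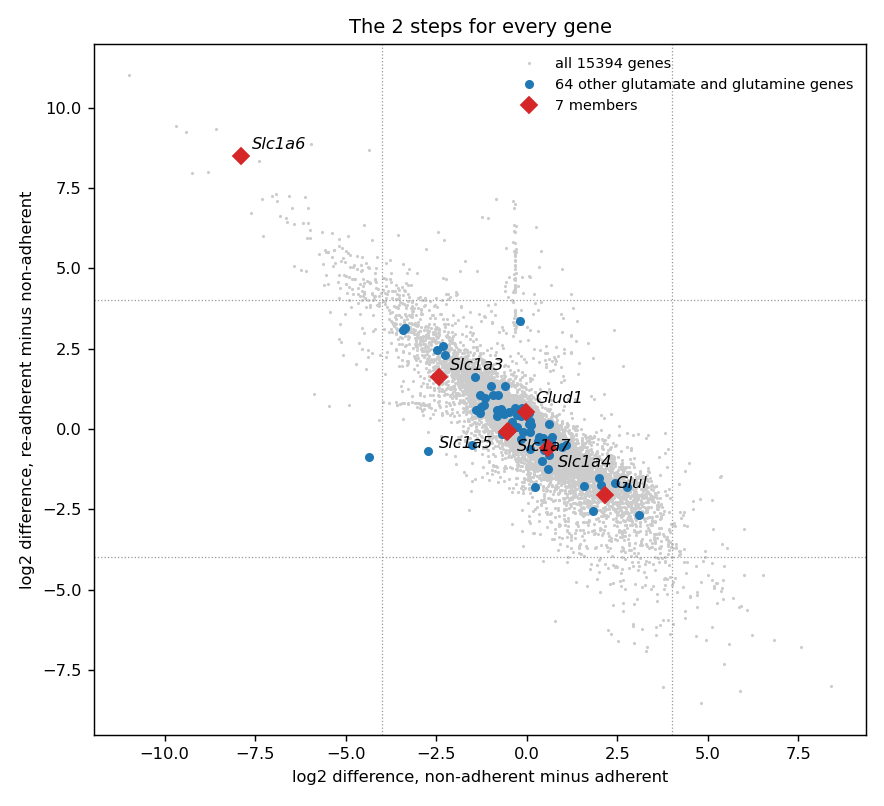
Log2 difference of non-adherent minus adherent cells (x axis) against re-adherent minus non-adherent cells (y axis) for 15394 genes (grey), 64 other genes of glutamate and glutamine handling (blue) and the 7 measured members (red); dotted lines mark 16-fold and both axes share the non-adherent array. Slc1a6, at -7.89 and 8.49, is the 1 member beyond the dotted lines, in the corner of genes lost and regained.

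Other genes of glutamate and glutamine handling were read from a list of 82 genes, 64 of them measured. Of the 64, 16 fell and 9 rose over 2-fold in suspension, beside 14.7% and 17.2% of all genes, and their median was -0.13 beside -0.07 for all genes. The falls include Gad2 and the rises Slc38a5 and Grm6, each detected in a single state, so the filter on dim probes favoured their direction. Of 13 measured enzymes that make or use glutamate and glutamine, in suspension 5 fell and 0 rose over 2-fold (all genes, 14.7% and 17.2%), with a median of -0.61. Gad2, among the 5, read 65.8, 10.6 and 5.13 units. It passed the filter through the adherent array alone, where it was high. The enzymes that fell over 4-fold and were well above background on both arrays were Bcat1, a branched-chain aminotransferase (2949, 294 and 1924 units), Asns, asparagine synthetase (33023, 7162 and 33086 units), and Psat1, the serine pathway aminotransferase (18258, 4098 and 15606 units). Bcat1 fell by 3.43 and rose by 3.08, Asns fell by 2.30 and rose by 2.57, and Psat1 fell by 2.25 and rose by 2.29, each with an error of 0.20.

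Of 9 enzymes that take the amide nitrogen of glutamine for other products, 4 were over 2-fold lower in suspension and 0 higher, against the same 14.7% and 17.2% of all genes. Ctps, CTP synthase, read 29883, 3084 and 21336 units, and fell by 3.37 and rose by 3.15 with an error of 0.20. Of 4 measured proline enzymes, 3 were over 2-fold lower in suspension, against 14.7% of all genes. Aldh4a1, which turns a proline breakdown product into glutamate, changed by 0.07 and 0.49.

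Transporters other than SLC1 split in both directions, and in suspension 4 of 17 fell and 7 rose over 2-fold, beside 14.7% and 17.2% of all genes. Slc38a5, among the 7, read 8.85, 33.8 and 4.52 units. It passed the filter on dim probes through the non-adherent array alone, so the filter favoured its rise. Slc7a5, the large neutral amino acid exchanger that trades glutamine for leucine, read 1882, 361 and 1534 units, and fell by 2.48 and rose by 2.45. Slc43a2, a carrier of large neutral amino acids, read 977, 7067 and 1551 units, and rose by 2.76 and fell by 1.82. Slc38a4, a sodium-coupled amino acid carrier, read 390, 20.4 and 8.63 units, fell by 4.35 in suspension and did not return to a signal well above background, so that adherent cells were at least 17.7-fold above re-adherent cells. Slc38a3, a glutamine carrier, read 34.1, 32.0 and 258 units, but its spot lay where 36 neighbouring spots had a median difference of 1.44 on re-adhesion, and it drops out when such bright patches are left out.

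**Figure D4:**
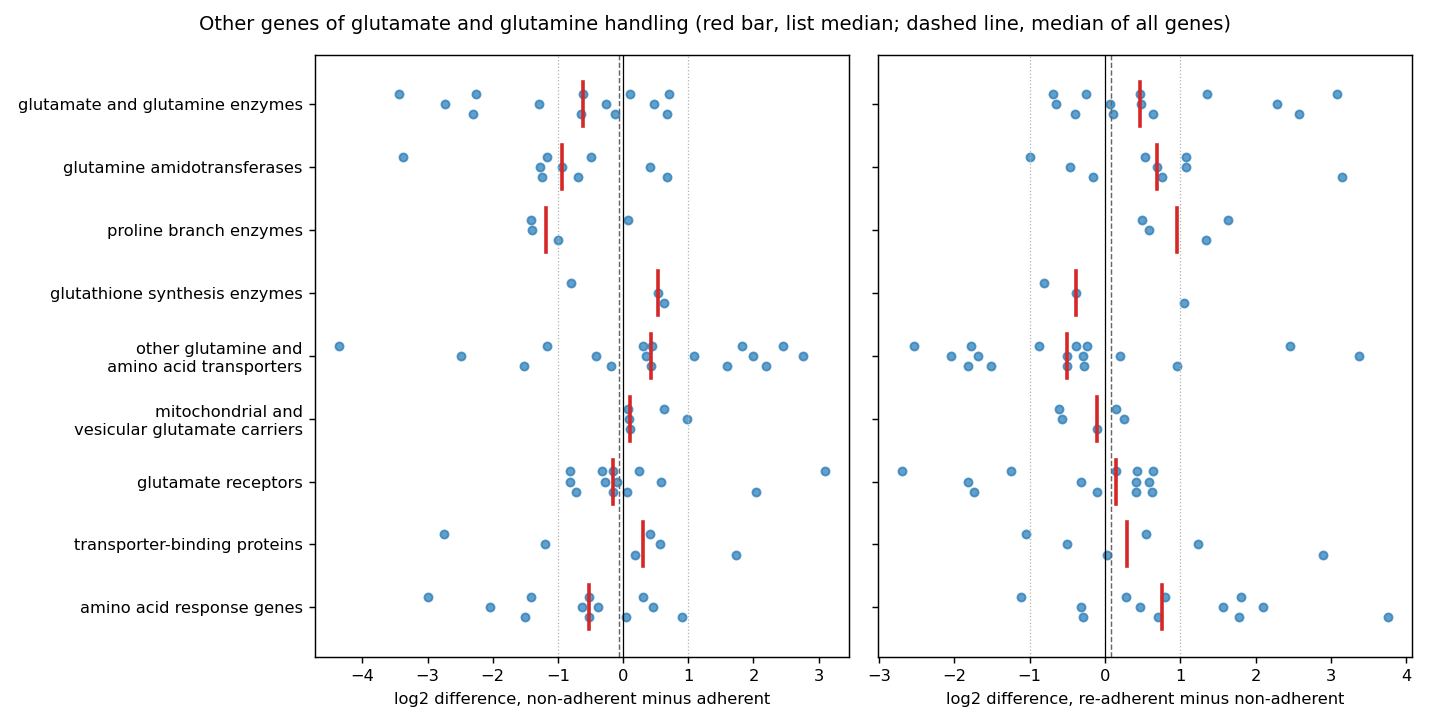
Log2 differences of single genes (blue) in 9 lists of glutamate and glutamine handling for non-adherent minus adherent cells (left) and re-adherent minus non-adherent cells (right); red bars are list medians, dashed lines the median of all genes and dotted lines 2-fold. The medians of the enzyme lists lie between -0.61 and -1.19 on the left for the enzymes of glutamate, amide and proline metabolism, and between 0.46 and 0.96 on the right.

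Asns and Psat1 belong to the targets of ATF4, the factor of the amino acid response, so a list of 12 further genes of that response was read beside the members. In suspension 4 of the 12 fell and 0 rose over 2-fold, against 14.7% and 17.2% of all genes, with a median of -0.52. On re-adhesion 5 were over 2-fold higher and 1 lower, against 15.6% and 16.3% of all genes. Phgdh, the first enzyme of serine synthesis, read 16214, 2182 and 22914 units, and fell by 2.99 and rose by 3.76. Mthfd2 fell by 2.04 and rose by 1.78, and Chac1 fell by 1.41 and rose by 2.10. In suspension 8 of the 12 stayed within 2-fold. Vldlr, Cebpb, Nupr1 and Ddit3, named after their values were seen, lay above 0 there, at 0.90, 0.46, 0.30 and 0.05. Atf4 itself, chosen after its values were seen, read 84223, 62580 and 67375 units, and its differences of -0.53 and 0.47 were under 2-fold.

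Markers were read for the labelled cells and for other cells in which the members are known. All 10 myofibroblast markers were well above background on all 3 arrays, with Acta2 at 435300, 4690 and 345278 units, Postn at 7849, 7715 and 5620 units and Col1a1 at 183904, 120960 and 127093 units. Their median, -5.24 in suspension and 5.32 on re-adhesion, moved in the direction of Slc1a6, and 7 of the 10 fell over 2-fold, against 14.7% of all genes. Col1a2, among the 7 and named after its values were seen, fell by 1.01 and rose by 0.67, which is under 2-fold on re-adhesion. Neither Col1a2 nor the other 3 followed Slc1a6 closely. On the 2 steps Postn changed by -0.12 and -0.09, Col1a1 by -0.70 and 0.44, and Col3a1 by 0.19 and -0.95. Of 8 general fibroblast markers, 3 fell and 3 rose over 2-fold in suspension (all genes, 14.7% and 17.2%), and Pdgfra read 8548, 6259 and 4691 units. The fibroblast markers moved both ways in suspension, with Lum at 3.56, Mmp2 at 2.49 and Dcn at 1.69, and with Thy1 at -3.50, Tcf21 at -1.75 and Ddr2 at -1.09, these being named after their values were seen. Macrophage markers were also well above background on all 3 arrays for 18 of 18 measured genes, after the depletion of CD45-positive cells. Of these 18, 16 were over 2-fold higher in suspension, against 17.2% of all genes. The summed signal of the 18, in units of the 75th percentile of each array, went from 387 in adherent to 1880 in non-adherent and 685 in re-adherent cells. In re-adherent against adherent cells 9 were over 2-fold higher, against 4.84% of all genes, and the median was 1.01, where Glul stood at 0.08. Ptprc, the gene for CD45, read 355, 2441 and 532 units and Adgre1 read 4077, 38948 and 6413 units, highest where Glul and Slc43a2 were highest. The part of macrophage RNA in the rise of Glul was not tested.

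Slc1a6 and Slc1a3 ran against most of the macrophage markers, being lowest where those were highest. Itgam went the other way, at 25376, 15210 and 18947 units, and Cx3cr1 was highest in re-adherent cells, at 416, 2837 and 8492 units. Endothelial markers were over 2-fold higher in suspension for 5 of 10 genes and lower for 1 (all genes, 17.2% and 14.7%), with summed signals of 37.8, 41.8 and 40.2. On re-adhesion 7 of the 10 were over 2-fold lower and 1 higher (all genes, 16.3% and 15.6%), with a median of -2.25. Of the endothelial genes, Pecam1 read 127, 316 and 66.0 units and Cdh5 read 289, 2381 and 26.6 units. Eng and Kdr, the brightest of them in adherent cells, were lowest in suspension, at 8974, 3658 and 9373 units and at 9446, 7939 and 10320 units. Cardiomyocyte markers had summed signals of 1.33, 2.14 and 3.49, of which Tnnt2, at 593, 955 and 1646 units, gave the largest share, while Myh6 read 36.4, 75.6 and 26.9 units. Glial markers had summed signals of 1.41, 3.11 and 1.80, with Aldh1l1 at 580, 1713 and 613 units and Gfap at 20.8, 16 and 4.2 units, the last not well above background. Markers of Purkinje neurons had summed signals of 0.709, 1.49 and 0.712, with Pvalb at 148, 789 and 139 units and Pcp2 at 277, 204 and 232 units. The peak of these neural sums in suspension rested on Pvalb and Aldh1l1, and Pcp2 was lowest there, as Slc1a6 was. Itgam, Cx3cr1, Eng, Kdr, Tnnt2, Aldh1l1 and Pvalb were named after their values were seen, and the part of any of these cell types in the signal of Slc1a6 was not tested.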

How the data were processed

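RNA from 3 samples was hybridised to 1-colour Agilent SurePrint G3 mouse arrays. The authors deposited scanner output of Agilent Feature Extraction 10.10.1.1, which holds intensity values as background-subtracted and detrended processed signal with errors and flags, and a matrix of intensity values that equalled this signal times 1.52, 1.52 and 1.62 (adherent, non-adherent, re-adherent). The array design used mm9, and no coordinates of probes are given.

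Spots that the software flagged for uneven pixels or as outliers among repeats were dropped (154, 180 and 175 on the 3 arrays), no spot was saturated, log2 processed signal was reduced by the 75th percentile of non-control spots, and spots of a probe were averaged. Transcripts were matched to RefSeq symbols without versions for 27229 of 55665 probes. Probes had to be well above background somewhere among the 3 arrays, and the probe of highest mean level stood for a gene. The error of a difference combines the 2 spot errors that the software gives, and the number of arrays limits the precision. Where a dim array held only a bound, the brighter signal was set against the dim signal or the array's lowest detected signal, whichever was higher.

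Members, lists and motifs were chosen with earlier results of these data known. Named genes were all members and, per list, up to 4 genes over 4-fold different in a suspension step and well above background on both arrays, or else the 2 brightest, apart from genes not reported here. Alternatives covered scaling, background, filter, floor, probe rule, outlier spots, bright patches and threshold. The normexp correction in limma 3.58.1 (R 4.3.3, offset 50) used the median spot signal, since the files held no mean signal. The steps were tested on simulated data with Python 3.11.15, numpy 2.4.6 and pandas 2.3.3.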

Additional observations from a re-analysis of the deposited data

How the results depend on the processing

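Among the main values recomputed for the members and the pooled list under 14 alternatives, 213 stayed within 1.5 times for counts or within the technical error for differences, and 33 moved. The difference of Slc1a6 in suspension was -8.28 with spike-in scaling and -7.22 with the normexp correction. On re-adhesion it was 8.24 after quantile normalization, 8.12 with no scaling, 8.21 with the deposited matrix and 7.76 with normexp. Between re-adherent and adherent cells it was 0.35, 0.33 and 0.11 with quantile, no and spike-in scaling. The median of the members in suspension was -0.91 with spike-in scaling and -0.18 with normexp. On re-adhesion it was -0.42 with no scaling, -0.33 with the deposited matrix and 0.53 with no filter on dim probes, which adds Slc1a1 and Slc1a2. Between re-adherent and adherent cells it was -0.25 with no scaling and -0.46 with spike-in scaling. Members over 2-fold lower in that pair numbered 1 with no scaling and 3 with spike-in scaling, and the shares of all genes under these scalings are not given. At 4-fold 1 member was higher on re-adhesion, against 5.7% of all genes.

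Of the 64 other glutamate and glutamine genes, 10 fell and 12 rose over 2-fold on re-adhesion with the main processing. The shares of all genes were 16.3% and 15.6%. For re-adherent against adherent cells the counts were 4 lower and 1 higher, against 4.9% and 4.84% of all genes. At 4-fold the shares of all genes were 5.34% lower in suspension, and 6.05% lower and 5.7% higher on re-adhesion. Shares under the other alternatives are not given. At 4-fold 7 of the 64 were lower in suspension, beside 16 at 2-fold. On re-adhesion 5 were lower with normexp, 6 with the filter on all 3 arrays, 6 with low signals raised to the floor and 3 at 4-fold, while 7 were higher with no scaling and 6 at 4-fold. Between re-adherent and adherent cells 7 were lower with no scaling, 12 with spike-in scaling, 2 with normexp and 1 with the filter on all 3 arrays, and 2, 3 and 0 were higher with median scaling, no filter and bright patches left out. The median of the Purkinje markers on re-adhesion, -1.17, turned to 0.06 with normexp and 0.17 with the floor. The causes were not tested beyond what each alternative does by construction. No paired analysis was possible because a single array stands for each state, which also means that no replicate could be left out.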

Other observations

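Several genes tied to glutamate by other routes were read on the same arrays. Of 24 glutamate receptor genes, 13 were measured, and 0 fell and 2 rose over 2-fold in suspension, beside 14.7% and 17.2% of all genes and with no test behind these counts. Grik4, a kainate receptor subunit, read 24.7 units in adherent, 109 in non-adherent and 25.4 in re-adherent cells and rose by 2.04 with an error of 0.31. Grm6 was detected in non-adherent cells alone, at 33.8 units, which is at least 1.89-fold above adherent cells. It passed the filter on dim probes through that array alone, so the filter favoured its place among the 2 rises. None of 5 measured mitochondrial and vesicular glutamate carriers was over 2-fold different in any pair, again with no test behind the count. The shares of all genes lower and higher were 14.7% and 17.2% in suspension, 16.3% and 15.6% on re-adhesion, and 4.9% and 4.84% between re-adherent and adherent cells. Slc25a12 and Slc25a13, the mitochondrial aspartate and glutamate carriers, changed by 0.09 and 0.98 in suspension. Of the enzymes of glutathione synthesis, which starts from glutamate, Gclc and Gclm changed by 0.62 and 0.53 in suspension and by -0.81 and -0.38 on re-adhesion, whereas Gss, glutathione synthetase, changed by -0.80 and rose by 1.05.

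Among 6 proteins reported to bind glutamate transporters, 2 fell and 1 rose over 2-fold in suspension, against 14.7% and 17.2% of all genes. Ajuba, a LIM protein that binds the transporter encoded by Slc1a2, read 2575, 413 and 2370 units, and fell by 2.74 and rose by 2.89 with an error of 0.20, although Slc1a2 itself stayed near background.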
